A study of Homo sapiens with 6 samples.

Results

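Polyamine metabolism in NGP cells was described through 10 genes, chosen by symbol from the 19805 gene symbols of the deposited count table. They are the synthesis enzymes ODC1, AMD1, SRM and SMS, the breakdown enzymes SAT1, SMOX and PAOX, and the regulators OAZ1, OAZ2 and AZIN1, and each had 1 entry in the table. NGP is a human neuroblastoma cell line with an amplified MYCN gene. RNA was sequenced from 3 libraries with knockdown of CAMKV (genotype CAMKV-KD, described as sh-CAMKV; sh commonly stands for short hairpin) and from 3 Control libraries (described as sh-control), all in RPMI-1640 medium with 20% fetal bovine serum. CAMKV is a pseudokinase related to the calmodulin-dependent kinases, and the comparison asks how the transcripts of these cells differ when it is knocked down. The labels give neither the number of hairpins nor the treatment time. Nothing in them ties replicates to independent cultures, and the p-values therefore reflect library-to-library spread that could be purely technical.

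Polyamines (putrescine, spermidine and spermine) are small cations that bind nucleic acids and are needed for growth. Ornithine decarboxylase (ODC1) makes putrescine from ornithine, AMD1 makes the aminopropyl donor from S-adenosylmethionine (SAM), and the synthases SRM and SMS use that donor to build spermidine and then spermine. SAT1 acetylates polyamines for export or oxidation by PAOX, and SMOX oxidises spermine directly. The antizymes OAZ1 and OAZ2 bind the ornithine decarboxylase protein, send it to the proteasome and block polyamine uptake, whereas the antizyme inhibitor AZIN1, an inactive relative of the decarboxylase, takes antizyme away from it. ODC1 is a textbook transcriptional target of MYC and MYCN, and much of the pathway is set by translation and protein turnover, which RNA counts do not measure.

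The sites below are shown because they carry the feedback and the MYC link of the pathway. Antizyme mRNA is read through only when ribosomes shift frame at a stop codon, which polyamines promote, and the site is shown for the antizyme that fell in CAMKV-KD (OAZ2) and the one that was not called (OAZ1). The sequences are from GENCODE 29 transcripts on GRCh38, with the codon before the stop and the stop itself in capitals; they lie in the coding region at chr15:64691501-64691530 (minus strand, OAZ2) and chr19:2271428-2271457 (plus strand, OAZ1).
OAZ2: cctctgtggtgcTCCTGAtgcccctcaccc
OAZ1: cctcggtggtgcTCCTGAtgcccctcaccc
The windows are identical at 29 of 30 bases.

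Promoter windows (250 bases before to 50 after a transcription start) came from RefSeq on GRCh38.p14, where 7 of the 10 members had at least 1 window, 10 windows in all. They were searched for CACGTG, the E-box bound by MYC-family dimers, which reads the same on both strands. It was found in 2 of the 7 members, ODC1 and SRM, against 8.77% of the 27305 genes in the table, and in 2 of the 10 member windows, against 7.26% of all 35116 windows. These shares are not matched for base composition, and the ODC1 and SRM windows with an E-box are 80.7% and 82.0% G or C. Enrichment was not tested. ODC1 and SRM are shown with the E-box in capitals. Those of the called members AMD1 and OAZ2 are shown for comparison and hold none, and the capitals in AMD1 mark the 21-base upstream reading frame through which polyamines are known to repress its translation.
ODC1, chr2:10447963-10448262, minus strand: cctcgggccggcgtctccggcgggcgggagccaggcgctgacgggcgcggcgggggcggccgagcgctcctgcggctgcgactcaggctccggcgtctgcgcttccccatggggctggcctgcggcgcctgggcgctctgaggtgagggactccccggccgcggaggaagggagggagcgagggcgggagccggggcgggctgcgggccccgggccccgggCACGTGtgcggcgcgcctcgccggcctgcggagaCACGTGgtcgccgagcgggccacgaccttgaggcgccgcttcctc
SRM, chr1:11059969-11060268, minus strand: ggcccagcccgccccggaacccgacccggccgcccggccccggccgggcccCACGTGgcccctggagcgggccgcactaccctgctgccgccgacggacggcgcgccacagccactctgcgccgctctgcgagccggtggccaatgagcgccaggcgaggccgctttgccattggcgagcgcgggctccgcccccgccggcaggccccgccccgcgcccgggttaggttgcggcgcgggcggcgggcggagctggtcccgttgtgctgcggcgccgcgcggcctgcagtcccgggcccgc
AMD1, chr6:110874534-110874833, plus strand: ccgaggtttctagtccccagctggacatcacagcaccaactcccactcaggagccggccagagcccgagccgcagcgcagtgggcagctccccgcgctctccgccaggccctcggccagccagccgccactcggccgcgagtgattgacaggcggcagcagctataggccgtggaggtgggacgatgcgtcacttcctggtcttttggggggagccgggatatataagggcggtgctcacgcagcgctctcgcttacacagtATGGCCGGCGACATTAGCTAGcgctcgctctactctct
OAZ2, chr15:64703232-64703531, minus strand: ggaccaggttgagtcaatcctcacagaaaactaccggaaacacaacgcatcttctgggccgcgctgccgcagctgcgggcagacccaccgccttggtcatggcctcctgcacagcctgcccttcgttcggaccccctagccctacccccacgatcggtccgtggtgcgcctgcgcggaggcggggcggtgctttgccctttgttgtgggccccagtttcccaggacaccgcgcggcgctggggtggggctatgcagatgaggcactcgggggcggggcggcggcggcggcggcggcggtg
The ODC1 window belongs to the downstream of its 2 annotated starts. Its E-boxes begin at −29 and 6 relative to that start (the start is base 1), at chr2:10448036-10448041 and chr2:10448002-10448007, which is intronic in 2 of the 4 GENCODE 29 transcripts of ODC1. At least 2 copies in a window, as in ODC1, occur in 0.664% of windows. The SRM E-box begins at −199 and lies outside every GENCODE transcript of SRM. A match describes letters and does not show binding.

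Total counts ran from 20238281 to 24274441 in CAMKV-KD and from 22364742 to 24701564 in Control libraries. CAMKV itself was at 25.4, 23.2 and 25.4 CPM (the count scaled to library size, with trimmed mean of M values factors, TMM) in CAMKV-KD, against 83.9, 77.3 and 84.6 CPM in Control, so 30.1% of its level remained. All 14 neuroblastoma identity genes checked passed the filter, and 5 were called lower and 1 higher in CAMKV-KD (36.3% of all tested genes were called in either direction). Their summed level was 1783 to 2159 CPM in CAMKV-KD and 2304 to 2540 CPM in Control. Markers of other cell types were low, with summed levels of at most 3.15 (Schwann and glial), 2.08 (blood and endothelial) and 5.53 CPM (epithelial) in any CAMKV-KD library and 5.28, 2.43 and 3.63 CPM in any Control library; SOX10, CD3E, HBB and KRT18 had no count. The fibroblast and stromal list was the exception, at 562 to 580.3 CPM in CAMKV-KD and 402 to 426 CPM in Control, with 4 members higher and 1 lower, while FAP and POSTN had no count. COL1A1 (means of 219 CPM in CAMKV-KD and 146 CPM in Control) and COL3A1 (197 and 111 CPM) made up most of that sum. COL1A2 (0.37 and 0.64 CPM) and DCN (2.95 and 5.77 CPM) were scarce, had lower means in CAMKV-KD and were not called. The summed levels of the identity and stromal lists did not overlap between the groups, which also held for 52.8% of single tested genes. The part of these lists in the results below was not tested. Within the identity list, CHGA (means of 208 CPM in CAMKV-KD and 445 CPM in Control) and HAND2 (315 and 142 CPM) went opposite ways. Neither was called, and both were named after their values were seen.

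Knockdown of CAMKV was accompanied by modest differences in polyamine genes. Of the 9 members that passed the filter on low counts, 2 fell, AMD1 and OAZ2, and none rose, so 22.2% of tested members were called (edgeR quasi-likelihood test, adjusted p below 0.05 over all 13361 tested genes). Over all tested genes 36.3% were called, 19.0% as lower and 17.3% as higher. With 9 members, the 2 shares cannot be told apart. The fitted log2 fold change was below 0 for 7 members and above 0 for SMOX and AZIN1, with a median of −0.23, against 0.0045 over all tested genes. All CAMKV-KD libraries lay below all Control libraries for 3 members (ODC1, AMD1 and OAZ2), and for 26.6% of all tested genes, and for no member did all lie above, against 26.2% of tested genes. The groups did not overlap in either direction for 3 of 9 members and for 52.8% of tested genes. In bulk RNA, fewer cells expressing a gene and less RNA per cell cannot be told apart.

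**Figure D1:**
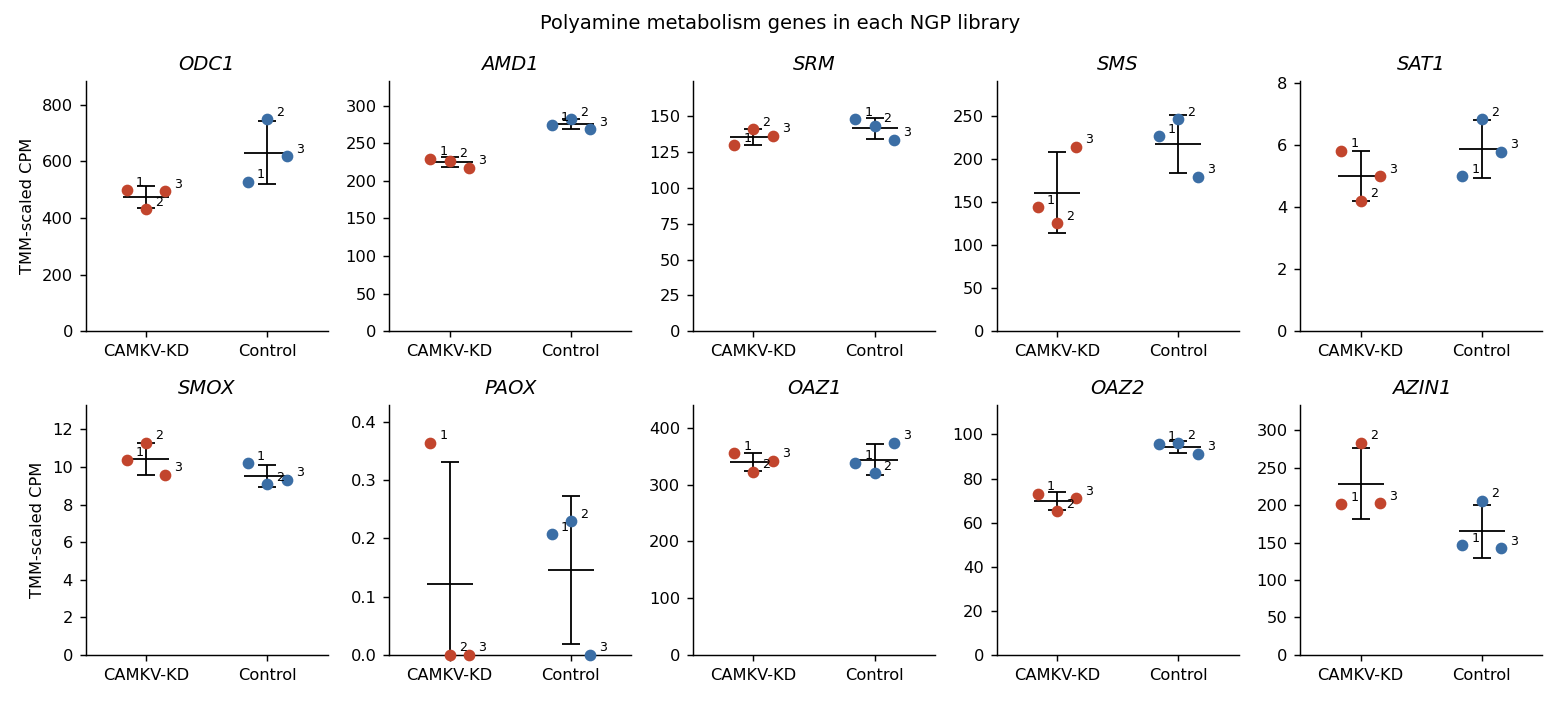
Level of each member in every library, in TMM-scaled CPM on axes that start at 0; points are libraries with their replicate number, CAMKV-KD left and Control right, and bars are mean ± SD (n = 3). The groups separate for ODC1, AMD1 and OAZ2, while AZIN1 is highest in library 2 of each group.

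ODC1, the committed step of the pathway and its most abundant member by CPM (rank 226 of all symbols), lies on chromosome 2 from 10439968 to 10448504 (minus strand). It was at 499.7, 431 and 494 CPM in the CAMKV-KD libraries, against 527, 749 and 617 CPM in the Control libraries. Every CAMKV-KD library was below every Control library, but Control 1 lay close to CAMKV-KD 1 while Control 2 stood well above the rest. The means were 475 ± 38.0 CPM in CAMKV-KD and 631 ± 112 CPM in Control (SD, n = 3), and the log2 fold change was −0.41 ± 0.14 (SE; 95% interval −0.76 to −0.056). It did not pass over all genes (adjusted p = 0.0743, edgeR; unadjusted p = 0.0305). The call turned on single libraries and on the tool. It was made without Control 1 (−0.52, adjusted p = 0.0329) and with DESeq2 (−0.41, adjusted p = 0.0413), and the difference shrank to −0.27 without Control 2 (adjusted p = 0.127).

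AMD1, which supplies the aminopropyl donor for both synthases, fell in CAMKV-KD. It is on chromosome 6 from 110874770 to 110895713 (plus strand) and was at 229.7, 227 and 218 CPM in CAMKV-KD, against 275, 282 and 268 CPM in Control. The libraries of each group lay close together and the groups were well apart. Its log2 fold change was −0.29 ± 0.035 (SE), so 81.7% of the Control level remained (225 ± 6.27 CPM in CAMKV-KD and 275 ± 6.75 CPM in Control, SD, n = 3; adjusted p = 0.00261, edgeR). It was called in all 16 alternatives, between −0.32 and −0.23. GENCODE holds 4 AMD1 pseudogenes, whose reads the authors' counting could have shared with AMD1.

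The synthases were not called. SRM (chromosome 1, 11054584 to 11060024, minus strand) was at 129.7, 140.9 and 136 CPM in CAMKV-KD, against 148, 144 and 134 CPM in Control, and the groups overlapped. Its log2 fold change was −0.064 ± 0.055 (SE; 95% interval −0.20 to 0.074; adjusted p = 0.42, edgeR), an interval that leaves room for only a small difference, and GENCODE holds 2 SRM pseudogenes. SMS (chromosome X, 21940573 to 21994835, plus strand) was at 144, 125 and 214 CPM in CAMKV-KD, against 226, 246 and 179 CPM in Control. Here CAMKV-KD 3 lay among the Control libraries and Control 3 below CAMKV-KD 3, so the libraries crossed. The log2 fold change of SMS was −0.43 ± 0.23 (SE; 95% interval −1.02 to 0.16; adjusted p = 0.212, edgeR). Without CAMKV-KD 3 it was −0.69 and called (adjusted p = 0.0402), and without CAMKV-KD 2 it was −0.28 (adjusted p = 0.423).

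**Figure D2:**
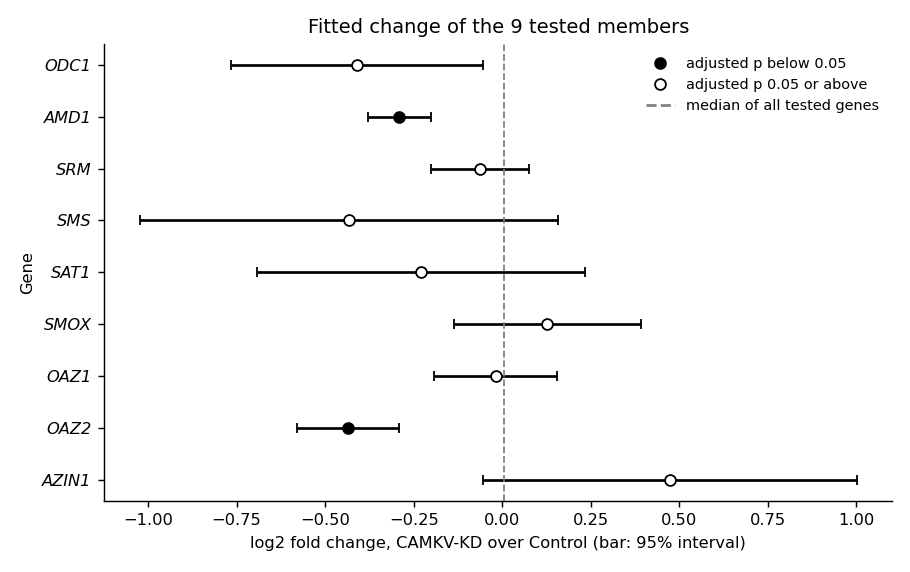
Fitted log2 fold change of the 9 tested members, CAMKV-KD over Control, with 95% intervals; filled points have an adjusted p below 0.05 and the dashed line is the median of all tested genes (0.0045). The AMD1 and OAZ2 intervals are narrow and below 0, that of ODC1 ends at −0.056, and those of SMS and AZIN1 are the widest with SAT1.

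Breakdown enzymes were rare in these cells. SAT1, the acetyltransferase that polyamines induce (chromosome X, 23783173 to 23786226, plus strand), was at 5.82, 4.21 and 4.99 CPM in CAMKV-KD, against 5.00, 6.84 and 5.79 CPM in Control. The groups overlapped, and the log2 fold change was −0.23 ± 0.18 (SE; 95% interval −0.69 to 0.23; adjusted p = 0.389, edgeR), on 87 to 144 counts per CAMKV-KD library and 121 to 149 per Control library. SMOX (chromosome 20, 4120980 to 4187747, plus strand) was at 10.4, 11.3 and 9.58 CPM in CAMKV-KD, against 10.2, 9.09 and 9.33 CPM in Control. It too overlapped, at 0.13 ± 0.11 (SE; 95% interval −0.14 to 0.39; adjusted p = 0.404, edgeR). PAOX (chromosome 10, 133379234 to 133391694, plus strand) had 9, 0 and 0 counts in CAMKV-KD and 5, 5 and 0 counts in Control and did not pass the filter. A count of 0 allows up to 0.148 CPM in CAMKV-KD 2 and 0.132 CPM in Control 3 (3 counts per library, counting error only). The PAOX entry shares its locus identifier with MTG1, which had 506, 403 and 430 counts in CAMKV-KD and 226, 199 and 239 counts in Control, so reads of the neighbours may have been divided between them.

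Of the antizymes, OAZ2, the less abundant one (chromosome 15, 64687573 to 64703281, minus strand), fell: it was at 73.1, 65.2 and 71.0 CPM in CAMKV-KD, against 95.8, 96.2 and 91.2 CPM in Control. The groups lay far apart relative to their spread. The means were 69.8 ± 4.1 CPM in CAMKV-KD and 94.4 ± 2.78 CPM in Control (SD, n = 3), or 73.9% of the Control level, with a log2 fold change of −0.44 ± 0.057 (SE; adjusted p = 0.00327, edgeR). It was called in all 16 alternatives, between −0.47 and −0.37. AC100830.1, AC100830.2 and AC100830.3 overlap OAZ2 on the other strand, and with no strand setting given their reads cannot be told apart.

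OAZ1, the major antizyme (chromosome 19, 2269509 to 2273490, plus strand), was at 355, 323 and 342 CPM in CAMKV-KD, against 339, 320.2 and 374 CPM in Control. The groups overlapped fully, at −0.019 ± 0.069 (SE; 95% interval −0.19 to 0.16; adjusted p = 0.863, edgeR). That interval and the OAZ2 interval of −0.58 to −0.29 do not meet, although the difference between the antizymes was not itself tested. The OAZ1 entry shares its locus identifier with SPPL2B, which had 224 to 304 counts in CAMKV-KD and 216 to 337 in Control, far below the 6661 to 8789 counts of OAZ1 in CAMKV-KD and 6979 to 8330 in Control. JSRP1 overlaps OAZ1 on the other strand, so the strand limit given for OAZ2 applies here too.

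AZIN1, the antizyme inhibitor (chromosome 8, 102826357 to 102893864, minus strand), had the highest fitted value of the members but was not called. It was at 200.8, 283 and 202 CPM in CAMKV-KD, against 146, 206 and 142 CPM in Control. Library 2 was the highest of its group on both sides, and Control 2 just passed CAMKV-KD 1 and 3, so the groups overlapped. The means were 229 ± 47.0 CPM in CAMKV-KD and 165 ± 35.7 CPM in Control (SD, n = 3), with a log2 fold change of 0.47 ± 0.21 (SE; 95% interval −0.055 to 1.0; adjusted p = 0.14, edgeR). No fit without 1 library called it (0.29 without CAMKV-KD 2 to 0.67 without Control 2, adjusted p from 0.306 to 0.0605). Without both libraries numbered 2, a choice made after seeing the data, it was 0.48 and called (adjusted p = 0.0193). AZIN1-AS1 overlaps the gene on the other strand, and with no strand setting given their reads cannot be told apart.

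**Figure D3:**
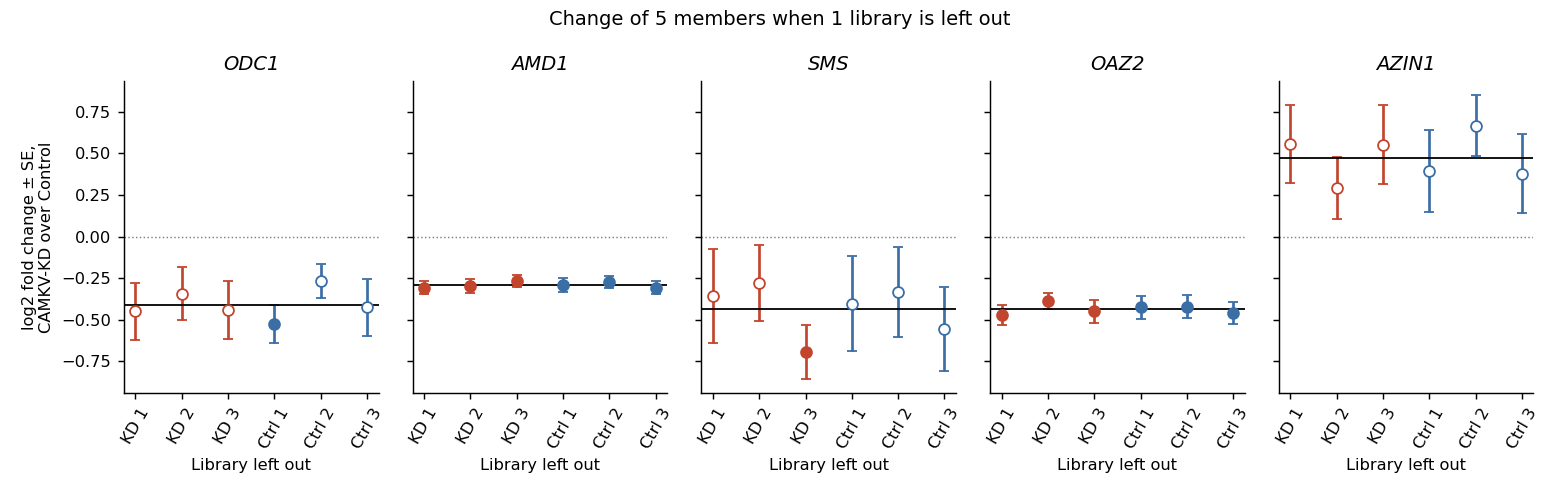
Log2 fold change ± SE of 5 members, CAMKV-KD over Control, when the library named on the axis (KD for CAMKV-KD, Ctrl for Control) is left out; filled points have an adjusted p below 0.05 and the black line is the value with all 6 libraries. AMD1 and OAZ2 stay called throughout, ODC1 is called only without Control 1, SMS only without CAMKV-KD 3, and AZIN1 in none.

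Because antizyme and its inhibitor act on the decarboxylase in opposite ways, their mRNAs were also set against each other within each library, as ratios of CPM that are not corrected for gene length and carry no test. The AZIN1 to OAZ2 ratio was 2.75, 4.34 and 2.85 in CAMKV-KD, against 1.53, 2.14 and 1.56 in Control. It was higher in every CAMKV-KD library, on average 1.90 times the Control ratio, although AZIN1 itself was not called. The AZIN1 to OAZ1 ratio, with the major antizyme, was 0.565, 0.877 and 0.592 in CAMKV-KD and 0.432, 0.643 and 0.380 in Control, and overlapped. The ODC1 to OAZ1 ratio was 1.41, 1.34 and 1.44 in CAMKV-KD, against 1.55, 2.34 and 1.65 in Control, lower in every CAMKV-KD library. ODC1 alone was also lower in every CAMKV-KD library, and neither ODC1 nor OAZ1 was called. Of single tested genes, 52.8% did not overlap between the groups, and no such share was taken for ratios. The ODC1 to OAZ2 ratio was 6.84, 6.61 and 6.95 in CAMKV-KD, against 5.50, 7.78 and 6.77 in Control, so the groups overlapped. The SMS to SRM ratio overlapped, at 0.889 to 1.57 in CAMKV-KD and 1.34 to 1.71 in Control.

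**Figure D4:**
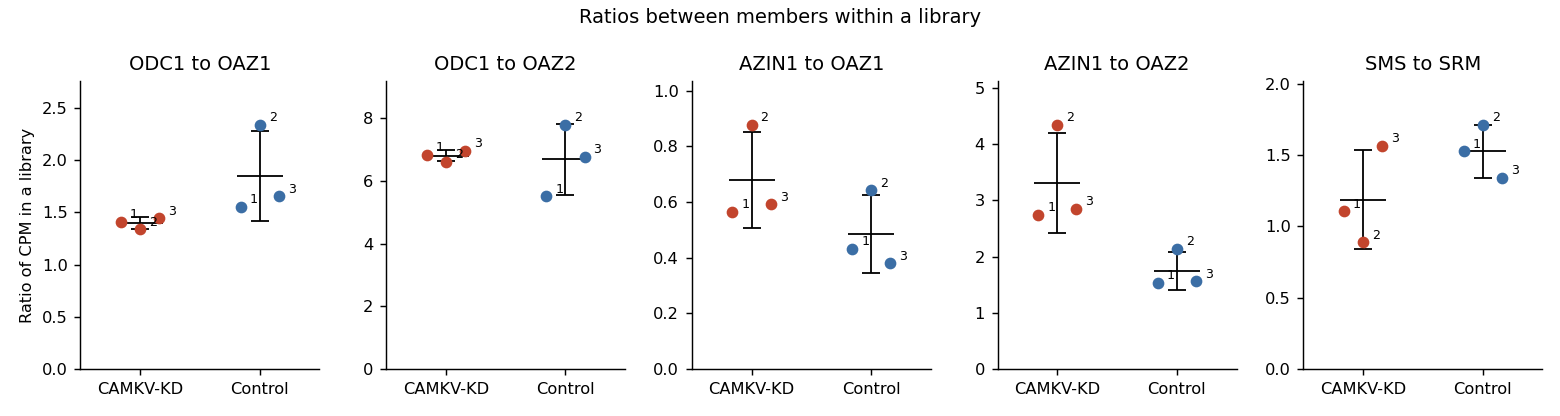
Ratio of 2 members' CPM within each library, on axes that start at 0; points are libraries with their replicate number, CAMKV-KD left and Control right, and bars are mean ± SD (n = 3). AZIN1 to OAZ2 is higher and ODC1 to OAZ1 lower in every CAMKV-KD library, and the other ratios overlap. The ratios carry no test.

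Per kilobase of exon, levels of different members can be set side by side. With the union of all annotated exons as the length, ODC1 was at 160 ± 12.8 CPM per kilobase in CAMKV-KD and 213 ± 37.6 in Control (SD, n = 3), the highest of the 10. SMS and OAZ1 followed at 74.5 ± 21.6 and 98.9 ± 4.76 in CAMKV-KD and 100.5 ± 15.8 and 100.2 ± 7.90 in Control, and in Control these neighbours did not differ beyond their spread. Next in Control came SRM (74.7 ± 3.86), AMD1 (39.1 ± 0.961), AZIN1 (25.6 ± 5.55) and OAZ2 (12.3 ± 0.362), each apart from the next by more than its SD. SMOX (3.24), SAT1 (2.35) and PAOX (0.0638) were lowest in Control. The order was not the same in CAMKV-KD, where AZIN1 (35.6 ± 7.32) stood above AMD1 (32.0 ± 0.893), within the SD of AZIN1. SRM (71.5 ± 2.96) lay close to SMS there. The order depends on the length used as well. With the principal transcript, chosen as an alternative after seeing the data, OAZ1 was first in Control at 299.9 and ODC1 second at 238, and AZIN1 (34.9) changed places with OAZ2 (48.8), as SMOX (4.27) did with SAT1 (5.52).

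Genes around the pathway were described in the same way. Of 61 genes in 5 lists (polyamine paralogues and transporters, hypusine, ornithine and arginine supply, SAM and methionine salvage, and the MYC family), 45 passed the filter, 10 rose and 14 fell, or 53.3%, against 36.3% of all tested genes; their median log2 fold change was −0.15. Whether their share differs from that of the members was not tested. In the SAM and methionine salvage list, which also holds AHCY-like genes and amino acid transporters, 5 of 13 tested genes rose and 6 fell (list median −0.15). MAT2A, which makes SAM outside the liver, rose by 1.34 ± 0.054 (log2 ± SE; adjusted p = 0.00013, edgeR), and was at 311, 327 and 313 CPM in CAMKV-KD, against 120.3, 134 and 121 CPM in Control. ADI1, a dioxygenase of the methionine salvage route that recycles the by-product of SRM and SMS, rose by 1.23 ± 0.058 (SE), to 108 ± 5.25 CPM in CAMKV-KD, against 45.9 ± 2.1 CPM in Control (SD, n = 3). MTAP, the first enzyme of that route, rose by 0.26, while ENOPH1, a later one, fell by 0.36. AHCY, which clears S-adenosylhomocysteine, fell by 0.33, and MTR, the methionine synthase, fell by 0.37. The 3 other members of the list that fell were AHCYL2, AHCYL1 and MRI1, with larger log2 fold changes of −0.89, −0.82 and −0.70. They were named after their values were seen. The amino acid transporter genes SLC7A5 and SLC43A2 rose by 0.48 and 0.52.

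Ornithine and arginine supply had 4 of 9 tested members lower and none higher, where 36.3% of all tested genes were called and 19.0% were lower, and the list median was 0.055. ARG2 and OAT, which make ornithine or exchange it with glutamate semialdehyde, fell by 0.69 and 0.58. ALDH18A1, at the head of ornithine and proline synthesis, fell by 0.39 ± 0.024 (SE), with 213 ± 1.94 CPM in CAMKV-KD and 278 ± 1.03 CPM in Control (SD, n = 3). GATM, which releases ornithine while making the creatine precursor, fell by 2.18 ± 0.21 (SE), to 3.76, 5.13 and 6.42 CPM in CAMKV-KD, against 23.0, 23.2 and 23.1 CPM in Control. The 5 other tested members, which include the arginine transporters SLC7A1 and SLC7A2, were not called.

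Among paralogues and transporters 1 of 8 tested members rose and 1 fell, too few to set against the 36.3% called over all tested genes (list median −0.52). Some of the 8 were scarce, such as AZIN2 at 31, 17 and 33 counts in CAMKV-KD and 31, 53 and 40 counts in Control. SLC3A2, the heavy chain that pairs with SLC7A5 and is also implicated in polyamine export, rose by 0.93 ± 0.070 (SE), to 130.5, 129.3 and 129.9 CPM in CAMKV-KD, against 74.9, 63.1 and 66.8 CPM in Control. SAT2, a relative of SAT1, fell by 0.42, a call lost without CAMKV-KD 1, CAMKV-KD 2, Control 1 or Control 3 (adjusted p from 0.0524 to 0.0648). Of the lysosomal and endosomal polyamine pumps, ATP13A2 was at 36.5 to 39.7 CPM in CAMKV-KD and 36.4 to 41.0 CPM in Control. ATP13A3 was at 3.8, 3.49 and 5.13 CPM in CAMKV-KD, against 4.59, 27.5 and 7.0 CPM in Control, so its fitted −1.65 (not called) leans on Control 2. Both pumps were named after their values were seen.

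The hypusine pathway uses spermidine to modify the translation factor EIF5A. EIF5A was at 460.3, 483 and 470.5 CPM in CAMKV-KD, against 468, 459 and 479 CPM in Control, with a log2 fold change of 0.0074 ± 0.030 (SE, not called). Its paralogue EIF5A2 fell by 0.89 ± 0.12 (SE), and DOHH, which completes hypusine, rose by 0.71 ± 0.11 (SE), to 16.2 ± 0.574 CPM in CAMKV-KD, against 9.90 ± 1.13 CPM in Control (SD, n = 3). In all 1 of 4 members rose and 1 fell, too few to set against the 36.3% called over all tested genes (list median −0.034). EIF5A was named after its values were seen.

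**Figure D5:**
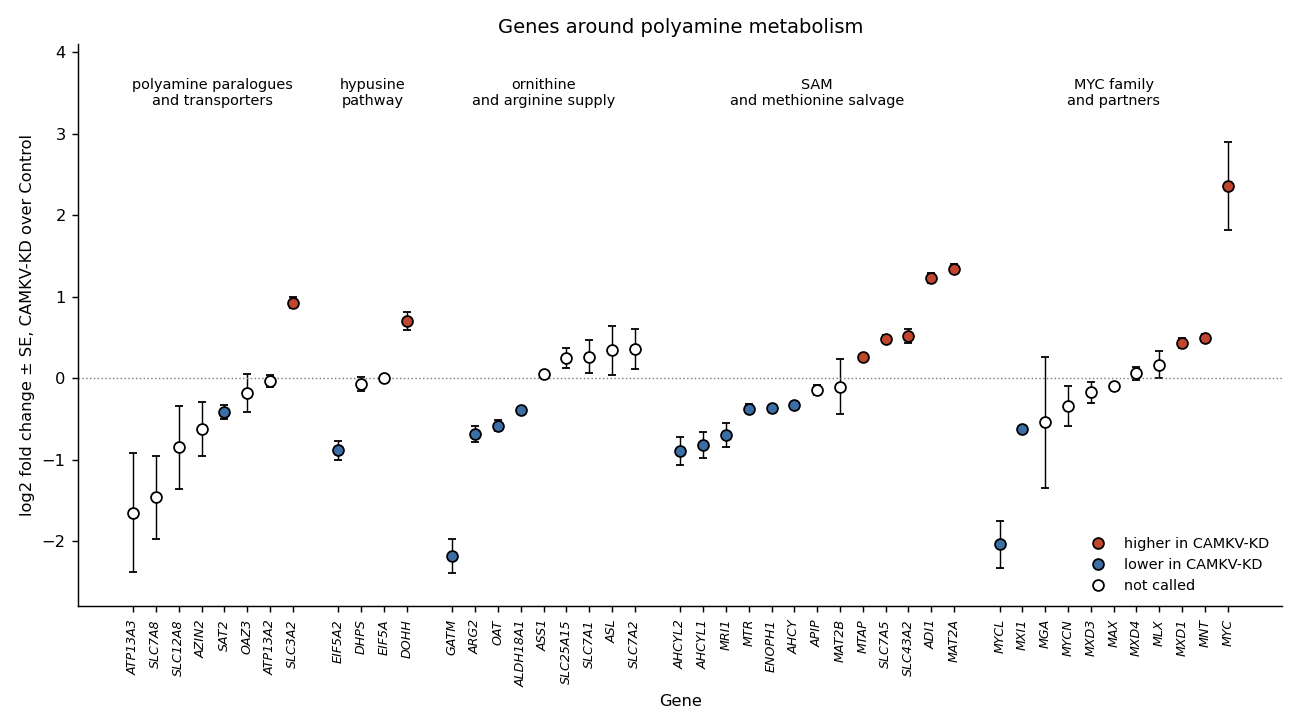
Log2 fold change ± SE of the 45 tested genes of 5 lists around polyamine metabolism, CAMKV-KD over Control, ordered within each list; red and blue points are called higher and lower, and white points are not called. MAT2A and ADI1 top the SAM list at 1.34 and 1.23, and GATM is lowest in the ornithine list at −2.18.

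MYCN, the MYC-family member amplified in these cells, lies 5.49 Mb from ODC1 on the same chromosome. It was at 822, 864 and 960.2 CPM in CAMKV-KD, against 942, 1550 and 857 CPM in Control. Control 2 was the highest of the 6 libraries for MYCN, as for ODC1, but the other Control libraries lay among the CAMKV-KD ones for MYCN and above them for ODC1. MYCN was not called (−0.34 ± 0.24, SE; adjusted p = 0.332, edgeR), and stood at −0.028 without Control 2. MAX, the partner of MYC proteins, was at −0.095 ± 0.039 (SE; adjusted p = 0.12, edgeR). Of the 11 members of this list 3 rose and 2 fell, where 17.3% of all tested genes were called higher and 19.0% lower (list median −0.095). MNT and MXD1, which pair with MAX and repress, rose by 0.49 and 0.43, and MXI1, of the same kind, fell by 0.62. MYCL fell by 2.04, to 8.54 ± 3.0 CPM in CAMKV-KD, against 35.1 ± 0.495 CPM in Control (SD, n = 3). MYC rose by 2.36 ± 0.54 (SE) on 19, 41 and 16 counts in CAMKV-KD, against 5, 4 and 6 counts in Control, a call lost without any one Control library (adjusted p from 0.0576 to 0.0728).

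The 5 tested genes whose pattern was most like that of ODC1 over the 6 libraries were PRKCQ, UPB1, DSC1, AZIN2 and ZNF573. Likeness was the Euclidean distance between log2(CPM + 1) values after subtracting each gene's mean, from 0.13 for PRKCQ to 0.20 for ZNF573. PRKCQ, a protein kinase C, was at 15.8, 13.5 and 15.3 CPM in CAMKV-KD, against 17.8, 22.8 and 19.0 CPM in Control. Control 2 was highest and CAMKV-KD 2 lowest, as for ODC1, which the choice by likeness favours. AZIN2, a second antizyme inhibitor, was at 1.25, 0.823 and 1.47 CPM in CAMKV-KD, against 1.28, 2.43 and 1.79 CPM in Control. None of the 5 was called, although PRKCQ, at −0.42 (adjusted p = 0.0517, edgeR), was called with upper-quartile scaling (0.0433), a minimum count of 50 (0.0484) and DESeq2 (0.0173). UPB1 and DSC1 averaged below 1 CPM in both groups, where adding 1 compresses differences. AZIN2, at 0.823 to 2.43 CPM over the 6 libraries, was compressed by it too. The likeness of UPB1, DSC1 and AZIN2 to ODC1 may therefore come in part from the added 1.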

How the data were processed

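RNA was extracted with TRIzol and 100 ng of total RNA went into each SMARTer mRNA-Seq library, per the labels' protocols. The deposited values are whole numbers in a file named as gene counts, with 1 column per library, and were taken as raw counts. The submitters' processing notes name HISAT2 2.1.0, StringTie 1.3.5, FastQC 0.11.2 and the build GRCh38.p13. For the annotation release, strand setting and the step from StringTie to counts, the entry is: not given in the sources used here. The authors tested with DESeq2 1.28.1, per the series' design text.

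All 6 columns were matched to samples by their labels. For 126 entries that share a symbol, the entry with the highest mean count was used. Gene positions and lengths came from GENCODE 29 by symbol (95.2% of symbols matched). In R 4.3.3, edgeR 4.0.16 was run with filterByExpr, TMM and the quasi-likelihood F-test on group alone, for 13361 genes, with Benjamini-Hochberg adjustment; calls are at adjusted p below 0.05. SE is the absolute log2 fold change over the square root of F, and 95% intervals use the fit's degrees of freedom. The fit was tested on simulated counts, with known changes in 198 of 13229 genes. It recovered 37.4% of changes of log2 size 1 and 85.9% of those of size 2. Of its calls, 3.94% were false. Far fewer genes were changed there than were called here. Each simulated gene was also given the spread typical of its level, not its own. These shares therefore need not hold for these data or for any 1 member. A member that was not called may still differ. Alternatives used DESeq2 1.42.0, limma 3.58.1 (voom), other scalings and filters, a replicate term, summed entries and each library left out. Intervals and floors cover counting error or library spread only; no molecular identifiers are named.

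The members, lists and the rule for named genes were chosen with earlier results of these data known. The rule named the 10 members, CAMKV, MYCN, MYC, MAX, up to 8 called genes per list by smallest p, and the 5 genes most like ODC1.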

Additional observations from a re-analysis of the deposited data

How the results depend on the processing

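AMD1 and OAZ2 were called and lower in all 16 alternatives, and the number of called members was 2 or 3 throughout. ODC1 was called in 2 of 16 (DESeq2, and without Control 1) and lay between −0.52 and −0.20, and SMS was called in 1 of 16. OAZ1, near 0, was above 0 with library totals (0.040), without CAMKV-KD 2 (0.019) and without Control 3 (0.044), ranged from −0.068 to 0.044 over fits without 1 library, and SAT1 was at 0.0041 without both libraries numbered 2; none of these was called. That last alternative, chosen after seeing the data, called 2707 genes in place of 4855, with fewer libraries. Leaving out 1 library gave 3853 to 3979 called genes.

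The groups share replicate numbers, but same-numbered libraries did not deviate together (r = −0.010, −0.062 and −0.033 across genes), and no CAMKV-KD library correlated best with its own number, so no library is taken as paired. With the replicate number as a block 3330 genes were called (1523 higher), and 3 members: AMD1, OAZ2 and AZIN1 (0.47, adjusted p = 0.013). The calls of SAT2 and MYC were lost with the block (adjusted p = 0.0659 and 0.0649). Library totals moved the share of higher calls to 56.4%, from 47.7% with TMM, and the median of all genes to 0.064. PAOX, at 0 to 9 counts per library, is beyond the depth of these libraries.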

Other observations

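MGA, a MAX-binding repressor of the MYC network, was at 32.1, 134 and 42.7 CPM in CAMKV-KD, against 48.5, 199 and 55.9 CPM in Control, and was not called. As for AZIN1, library 2 was the highest of its group on both sides. MGA was named after its values were seen, and the labels name no batch that joins the libraries numbered 2.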
